A study of Rattus norvegicus with 10 samples.

Results

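Hyperpolarization-activated, cyclic nucleotide-gated (HCN) channels were examined in the hippocampus of rats with epilepsy after amygdala stimulation. The genes were the channel subunits Hcn2, Hcn3 and Hcn4, and Pex5l, which encodes their auxiliary subunit TRIP8b. They were taken by gene symbol, with 1 row of the count matrix for each, and made up 4 of the 32041 rows. All 4 were among the 22447 rows that passed the filter on low counts. This set does not cover the whole HCN family. The tissue was a piece of the left hippocampus that held CA3 and dentate gyrus, from adult male Sprague-Dawley rats, an outbred strain. Every rat of both groups carried a bipolar electrode in the left lateral amygdala. In the stimulated group (rats 6 to 10) trains of 400 µA pulses at 60 Hz were given for 30 min, or longer where needed, to evoke status epilepticus, which was ended with diazepam. The sham group (rats 1 to 5) received no current. Tissue was collected at 3 months, when spontaneous seizures had been seen on video EEG in the stimulated animals. Stimulation through this electrode is focal, and sham rats carried the same electrode. Diazepam is described for stopping status epilepticus, and whether sham rats received it is not given in the sources used here.

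HCN channels are cation channels that open on hyperpolarization and carry the h-current. This current sets the resting potential and the input resistance of neurons and dampens the summation of synaptic potentials in dendrites. Binding of cAMP to the intracellular domain of the channel eases opening, so that adenylyl cyclases and phosphodiesterases tune the current. Subunits assemble as tetramers and differ in speed and in their response to cAMP: Hcn2 responds strongly, Hcn3 weakly and Hcn4 is the slow, cAMP-responsive subunit best known from the cardiac pacemaker and the thalamus. TRIP8b, the product of Pex5l, binds the carboxyl terminus of HCN subunits, steers their traffic to the dendritic membrane and counteracts the effect of cAMP. Loss or misplacement of HCN channels and TRIP8b has been studied widely in temporal lobe epilepsy.

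Libraries held 13552309 to 24086059 aligned reads, and a further 32.0 to 37.1% of reads were not aligned in rats 1 to 7, against 41.4, 42.9 and 45.1% in stimulated rats 8, 9 and 10. Ribosomal RNA records took 1.82 to 12.2% of aligned reads. The tissue expressed the CA3 markers Grik4 and Cpne4 and the dentate markers Prox1 and C1ql2 in every library. The CA1 markers Wfs1, Mpped1 and Fibcd1 were also present in every library. Fos, a gene transcribed within minutes of neuronal activity, stood at 106, 50.3 and 61.7 CPM (reads of a gene per megaread of the scaled library) in stimulated rats 7, 9 and 10, against 3.26 to 5.61 CPM in the other 7 rats. Of 16 immediate early genes, 15 were higher in stimulated rats at an unadjusted p-value under 0.05, a threshold that 9.86% of all tested rows passed. The 11 general neuronal markers summed to 5572 to 6082 CPM among sham and 5573 to 6145 CPM among stimulated rats, and none passed that threshold. Of the 11, 6 had a negative and 5 a positive log2 fold change. Rbfox3 lay below every sham rat in 4 of 5 stimulated rats, and Syn1 lay above every sham rat in 3 of 5. Among the other cell types, 5 of 12 endothelial, 4 of 9 astrocyte, 2 of 10 microglial, 1 of 11 interneuron, 1 of 4 CA3, 1 of 12 thalamic and habenular and 1 of 8 choroid plexus markers were higher at the unadjusted threshold, and 0 of 6 dentate, 0 of 7 CA1 and 0 of 12 oligodendrocyte markers passed it. No marker had an adjusted p-value under 0.05. In whole tissue, fewer cells of a type and less RNA per cell cannot be told apart.

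It was asked whether expression of the 4 genes differed between stimulated and sham rats. All 4 had a negative log2 fold change, although that of Hcn2 became positive without stimulated rat 7, and the median of the 4 was -0.30 against 0.01 over all tested rows. None of the 4 differed beyond the spread between rats. With edgeR's quasi-likelihood test, 0 of 4 genes and 0% of all tested rows reached an adjusted p-value under 0.05. At an unadjusted p-value under 0.05 the test called 0 of 4 genes and 9.86% of tested rows. DESeq2 and the likelihood ratio test of edgeR called 33 and 119 rows at the adjusted threshold, and 0 of the 4 genes at either threshold. Groups overlapped for all 4 genes, where 1.29% of tested rows had groups that did not. A negative fold change was found for 47.8% of all tested rows. The genes differed in how their values were spread over the rats, which is described gene by gene.

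**Figure D1:**
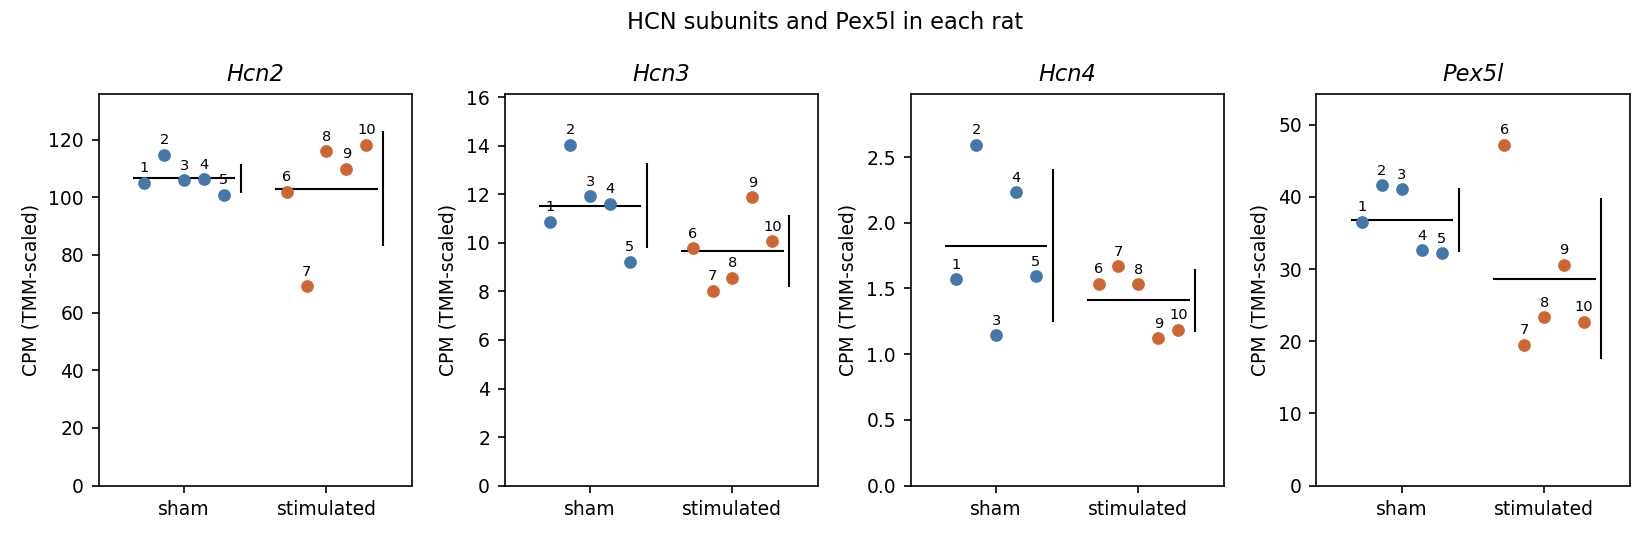
Expression of Hcn2, Hcn3, Hcn4 and Pex5l in each of the 10 rats, in CPM scaled with trimmed mean factors, with 1 point per rat labelled by rat number, horizontal lines for group means and vertical lines for ±1 SD (n = 5 each). Hcn2 of rat 7 lies at 69.2 CPM, below the other 9 rats. Pex5l lies below every sham rat in rats 7 to 10 and above every sham rat in rat 6.

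Pex5l (NM_173152) was counted at 36.6, 41.6, 41.0, 32.6 and 32.2 CPM in sham rats 1 to 5. In stimulated rats 6 to 10 it was counted at 47.2, 19.5, 23.3, 30.6 and 22.7 CPM. Thus 4 of 5 stimulated rats lay below the lowest sham rat, rat 9 by little, and rat 6 lay above the highest. The means were 36.8 ± 4.46 CPM among sham and 28.7 ± 11.1 CPM among stimulated rats (SD, n = 5 each). The log2 fold change was -0.36 (SE 0.203, 95% interval -0.79 to 0.08, adjusted p = 0.573), and the exact permutation test of mean log2 CPM gave p = 0.119 (two-sided). On the log2 scale the SD was 2.86 times as large in stimulated as in sham rats, a ratio that was not tested.

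The result for Pex5l rested on stimulated rat 6. Without this rat the log2 fold change was -0.63 (SE 0.14), with an unadjusted p-value of 0.000652 in edgeR's quasi-likelihood test and an adjusted p-value of 0.102. Over the 10 fits that each left out 1 rat, the adjusted p-value ranged from 0.102 to 0.799. Without rat 6, 0.637% of all tested rows (143 rows) had an unadjusted p-value as low as that of Pex5l, and 0 rows had an adjusted p-value under 0.05. Rows with an unadjusted p-value under 0.05 made up 14.0% of all tested rows without rat 6, against 9.86% with all 10 rats. The exact permutation test without rat 6 gave p = 0.00794 (two-sided), the smallest value that 4 against 5 rats allow. That outcome was fixed by leaving out rat 6, since rats 7 to 10 all lay below every sham rat, so it adds no support. The labels gave no ground to set rat 6 apart. Fos was low in rat 6, at 5.61 CPM, and also in rat 8, at 5.23 CPM, in which Pex5l was low. The 7 tested CA1 pyramidal markers summed to 428.8 CPM in rat 6. The sums were 239.4 to 356.2 CPM among sham and 151.2 to 263.8 CPM in the other stimulated rats. None of the 7, Wfs1, Fibcd1 and Mpped1 among them, was at 0 in any rat. Rat 10 held the least of these markers, at 151.2 CPM, and 22.7 CPM of Pex5l. Rat 7, with the lowest Pex5l level, held 241.4 CPM, within the sham range, but its single markers went different ways. Mpped1, Pou3f1, Etv1 and Ccn3 lay below their sham ranges in rat 7, Wfs1 and Fibcd1 within theirs and Man1a1 above its range. The share of unaligned reads was 41.4 to 45.1% in rats 8 to 10, which had low Pex5l, and 32.0% in rat 7, which had the least. The part of the CA1 markers, of recent activity and of the unaligned reads in the result for Pex5l was not tested.

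Pex5l is transcribed from alternative first exons into isoforms with different effects on channel traffic. The reference lists 36 transcripts of this gene, 10 of them curated, and the matrix held 1 row for it, so isoforms could not be separated. The 3 genes whose log2 CPM followed Pex5l most closely over the 10 rats, among 9618 rows with a symbol and a mean count of at least 100 (9619 for Hcn4), were Dpysl3 (Pearson r = 0.95), Rcbtb1 (r = 0.92) and Cdc26 (r = 0.91). They were picked for this likeness, so that r is a description. Dpysl3, a cytoskeletal phosphoprotein of growing axons, was counted at 13.3 to 18.3 CPM in sham rats, at 18.5 CPM in rat 6 and at 8.87 to 13.8 CPM in the other stimulated rats.

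Hcn2 (NM_053684), the subunit with the most reads of the 3, was counted at 105, 115, 106, 106 and 101 CPM in sham rats 1 to 5. In stimulated rats 6 to 10 it was counted at 102, 69.2, 116, 109.8 and 118 CPM. Rat 7 was low, the other 4 stimulated rats lay at or around the sham values, and the highest value of all was that of stimulated rat 10. Means were 106.6 ± 5.03 CPM among sham and 103 ± 20 CPM among stimulated rats (SD, n = 5 each). The log2 fold change was -0.05 (SE 0.125, adjusted p = 0.924), with a 95% interval from -0.32 to 0.22, that is from 0.802-fold to 1.17-fold. The exact permutation test gave p = 0.881 (two-sided).

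The spread of Hcn2 among stimulated rats came from 1 animal. Among sham rats the SD was 4.72% of the mean, where counting error alone gives 2.24%, and among stimulated rats it was 19.4%. Without rat 7 the log2 fold change was 0.05 (SE 0.0781, unadjusted p = 0.499 in edgeR's quasi-likelihood test), so that both the direction and the SE depended on this rat. Rat 7 also held the lowest sum of the 12 oligodendrocyte markers, 2493 CPM against 3048 to 4355 CPM in sham rats, and 6467 CPM of the astrocyte gene Gfap against 1327 to 1926 CPM. Gfap was also high in stimulated rat 10, at 5394 CPM, and that rat had the most Hcn2 of all. The other tested astrocyte markers went both ways in rat 7. Aqp4, Slc1a2 and Slc1a3 lay above their sham ranges, and S100b lay within its range. Aldh1l1, Gjb6, Gja1 and Fgfr3 lay below theirs, Aldh1l1 at 16.4 CPM against 40.5 to 50.9 CPM. C1ql2, a marker of dentate granule cells, was at 44.8 CPM in rat 7 and at 140.4 to 165.1 CPM in sham rats. The other tested dentate markers did not all follow it. Plk5 was also low in rat 7, at 0.464 CPM against 14.0 to 22.2 CPM in sham rats. Prox1, Calb1 and Lct lay within their sham ranges there, and Stxbp6 lay above its range, at 36.0 CPM against 17.8 to 29.7 CPM. None of the oligodendrocyte markers was at 0 in any rat. Whether these differences of rat 7 had a part in its Hcn2 level was not tested.

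Dyrk1b (r = 0.97), Rnpepl1 (r = 0.97) and Cdc42ep4 (r = 0.96) followed Hcn2 most closely over the 10 rats. Each was lowest in rat 7, Dyrk1b at 9.98 CPM against 21.5 to 30.3 CPM in the other 9 rats. Cdc42ep4, an effector of the small GTPase Cdc42, was counted at 37.6 CPM in rat 7 and at 101.1 to 120.3 CPM elsewhere. The correlations were not computed without rat 7.

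Hcn3 (NM_053685) was counted at 10.9, 14, 11.9, 11.6 and 9.22 CPM in sham rats 1 to 5. In stimulated rats 6 to 10 the values were 9.77, 8.03, 8.55, 11.9 and 10.1 CPM. The groups overlapped, with 4 of 5 stimulated rats under the sham mean and 2 of 5, rats 7 and 8, under the lowest sham rat. The means were 11.5 ± 1.75 and 9.66 ± 1.5 CPM (SD, n = 5 each), and the log2 fold change was -0.25 (SE 0.148, 95% interval -0.57 to 0.07, adjusted p = 0.587). The exact permutation test gave p = 0.111 (two-sided). The exact permutation test gave p = 0.0476 without sham rat 5, the lowest of its group, and the same value without stimulated rat 9, the highest of its group. In these 2 fits the unadjusted p-value of edgeR's quasi-likelihood test was 0.0453 and 0.0401, where 1821 and 1979 of all rows had one under 0.05. The adjusted p-value of that test lay between 0.494 and 0.799 whichever rat was left out. Counts of 134 to 281 per rat allow a counting error of about 7% of the level (6.83% in sham and 7.35% in stimulated rats), and the observed SD was 15.2% and 15.5% of the mean. Kdm4b (r = 0.97), P2ry12 (r = 0.94) and Map1s (r = 0.92) followed Hcn3 most closely over the 10 rats.

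Hcn4 (NM_021658) was the least counted of the 4, with 21 to 54 reads per library. Sham rats 1 to 5 had 1.57, 2.59, 1.14, 2.23 and 1.59 CPM. Stimulated rats 6 to 10 had 1.54, 1.67, 1.53, 1.12 and 1.19 CPM. All 5 stimulated rats lay below the sham mean, yet 4 of them lay above the lowest sham rat, rat 3. Means were 1.83 ± 0.579 CPM among sham and 1.41 ± 0.241 CPM among stimulated rats (SD, n = 5 each), and the log2 fold change was -0.36 (SE 0.264, adjusted p = 0.668). The exact permutation test gave p = 0.222 (two-sided). The 95% interval ran from -0.93 to 0.20. In sham rats the SD was 31.7% of the mean, where counting error alone gives 17.6%, and in stimulated rats it was 17.1% where counting error gives 19.3%.

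Hcn4 is abundant in thalamus and habenula, which border the hippocampus. The 12 tested markers of these regions summed to 73.6 to 87.2 CPM among sham and 70.1 to 91.5 CPM among stimulated rats. The habenular gene Gpr151 was at 0 in 3 rats and at 0.724 CPM or less in the others, and Gbx2 was at 0.763 CPM or less. Others of the 12 were higher, such as Ntng1 at 23.1 to 39.9 CPM among sham and 15.4 to 38.4 CPM among stimulated rats. Lef1 stood at 1.65 to 3.26 CPM among sham and 2.22 to 4.72 CPM among stimulated rats. The rats with the most Hcn4, sham rats 2 and 4, had 74.5 and 87.2 CPM of the summed markers. The part of tissue from these regions in the level of Hcn4 was not tested. Nfatc2 (r = 0.94), C4h2orf81 (r = 0.91) and Actn2 (r = 0.89) followed Hcn4 most closely over the 10 rats. Each had its highest value in sham rat 2 or sham rat 4.

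**Figure D2:**
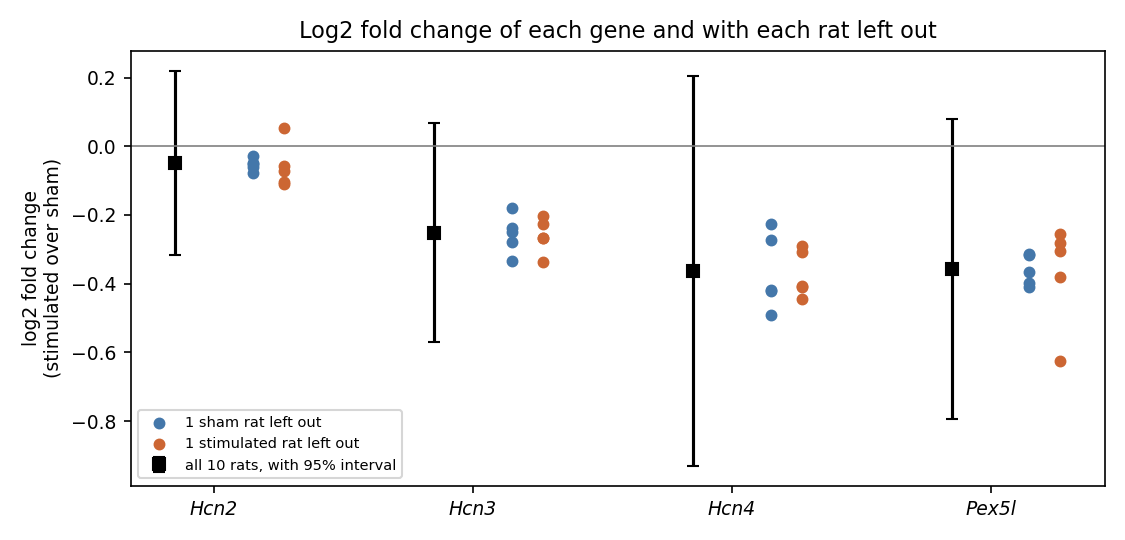
Log2 fold change of each gene, stimulated over sham, from edgeR's quasi-likelihood fit of all 10 rats (square, with 95% interval) and from the fits that each left out 1 sham or 1 stimulated rat (points). Every interval of the full fit includes 0. Hcn2 crosses 0 without rat 7, and Pex5l reaches -0.63 without rat 6.

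The makeup of the HCN reads was compared next. Hcn2 took 87.3 to 90.3% of the reads of the 3 subunits in sham rats and 87.7 to 92.0% in stimulated rats. Hcn3 took 8.25 to 10.7% and 6.78 to 10.2%, and Hcn4 took 0.960 to 1.98% and 0.913 to 2.12%. These shares are of reads and are not corrected for transcript length, so they do not rank the subunits by transcript number, but the ranges of both groups overlapped for each subunit. The summed level of the 3 subunits was 119.9 ± 7.15 CPM among sham and 114.1 ± 20.6 CPM among stimulated rats (SD, n = 5 each), with 78.9 CPM in rat 7 and 113.2 to 129.5 CPM in the other stimulated rats.

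Reads of the auxiliary subunit were then set against those of Hcn2 within each library, which removes the scaling between libraries. Sham rats had 34.8, 36.3, 38.7, 30.6 and 31.9 Pex5l reads per 100 Hcn2 reads. Stimulated rats 6 to 10 had 46.3, 28.3, 20.1, 27.9 and 19.2. The ratio was thus below all sham rats in 4 of 5 stimulated rats and above them in rat 6, as for Pex5l alone. Rat 7, in which both genes were low, came to lie just under the sham range, whereas rats 8 and 10 had Hcn2 above the sham range and the lowest ratios. No test was made of this ratio because it combines genes that were chosen together.

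**Figure D3:**
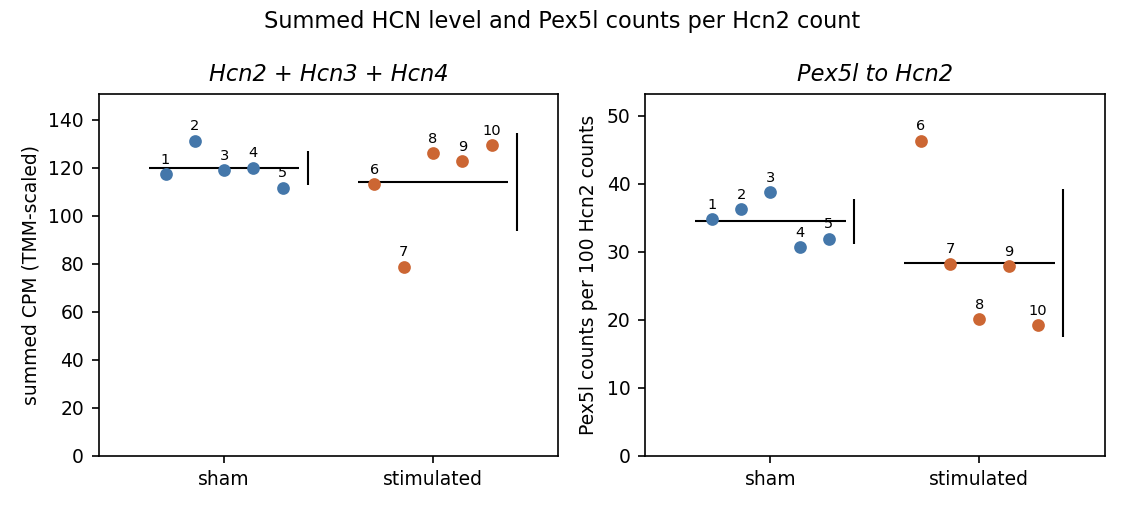
Left, the summed CPM of Hcn2, Hcn3 and Hcn4, and right, the number of Pex5l reads per 100 Hcn2 reads, with 1 point per rat labelled by rat number, horizontal lines for group means and vertical lines for ±1 SD (n = 5 each). The ratio lies between 30.6 and 38.7 in sham rats, between 19.2 and 28.3 in rats 7 to 10 and at 46.3 in rat 6.

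Whether the 4 genes varied together was examined over the 10 rats in 6 pairs. Hcn3 and Pex5l had the highest correlation of log2 CPM, with Pearson r = 0.65 (permutation p = 0.044, adjusted over the 6 pairs 0.264) and Spearman rho = 0.58 (permutation p = 0.0876, adjusted 0.526). It was r = 0.50 with values centred on their group means (permutation p = 0.139), r = 0.38 without the 2 rats farthest from the median of Hcn3, and r = 0.83 without rat 6 (adjusted over the pairs 0.0413), so that the call rested on single rats. Hcn2 and Hcn3 had r = 0.54 (permutation p = 0.108, adjusted 0.325) and rho = 0.38 (permutation p = 0.28, adjusted 0.815), and r was 0.25 without the 2 rats farthest from the median of Hcn2 and 0.11 without rat 7. For Hcn2 and Pex5l, r was 0.36 (permutation p = 0.348) with rho -0.13 (permutation p = 0.732), and r turned to -0.63 without rat 7. The pairs with Hcn4 had r between -0.08 and 0.24. No pair passed adjustment over the 10 rats.

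Proteins that bind HCN subunits or TRIP8b were described with a list of 16 genes, 14 of them tested, from which Pex5l was left out. None had an adjusted p-value under 0.05, and 3 were higher and 1 was lower at an unadjusted p-value under 0.05, against 9.86% of all tested rows in both directions. The median log2 fold change was 0.04. Kctd3, whose product binds Hcn3 and raises its surface expression, was counted at 80.9 to 88.6 CPM among sham and 65.4 to 82.9 CPM among stimulated rats, with 4 of 5 stimulated rats below all sham rats, and its log2 fold change was -0.19 (SE 0.0849, adjusted p = 0.488). Magi2 and Apba2, which encode scaffolds with PDZ domains, had log2 fold changes of -0.01 and -0.02.

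The 3 partner genes higher in stimulated rats at the unadjusted threshold were Flna, Tamalin and Cav1. The study itself lists Flna and Tamalin, the latter as Grasp, as upregulated in this model, from its own edgeR analysis. Flna, which encodes the actin crosslinker filamin A, was counted at 22.4, 17.7, 26.4, 21.8 and 18.8 CPM in sham rats and at 23.6, 64.6, 33.9, 37.6 and 57.6 CPM among stimulated rats 6 to 10. Only rat 6 fell within the sham range, and the log2 fold change was 1.02 (SE 0.231, adjusted p = 0.376). Tamalin, a scaffold of metabotropic glutamate receptors, was counted at 17.9 to 19.8 CPM in sham rats. It stood at 76.3, 128.1 and 36.1 CPM in rats 7, 9 and 10 and at 16.6 and 18.6 CPM in rats 6 and 8, and its log2 fold change was 1.55 (SE 0.454, adjusted p = 0.39). These 3 rats are the ones with high Fos, and the part of recent activity in the level of Tamalin was not tested. Cav1, which encodes caveolin-1 of endothelial caveolae, was counted at 10.5 to 14.8 CPM among sham and 12.3 to 29 CPM among stimulated rats, and its log2 fold change was 0.55 (SE 0.197, adjusted p = 0.414). The 12 endothelial markers summed to 237.8 to 253.3 CPM among sham and 217.1 to 441.5 CPM among stimulated rats, and 5 of the 12 were higher at an unadjusted p-value under 0.05. None of the 12 was at 0 in any rat. Rat 10 held both the highest sum and the most Cav1, and rat 7 held the lowest sum and the most Flna. The endothelial markers went both ways in rat 7. Pecam1, Cdh5, Flt1, Kdr and Esam lay above their sham ranges there. Cldn5, Tek, Tie1, Emcn, Slco1a4, Abcb1a and Ocln lay below theirs. The part of the endothelial markers in the levels of Flna and Cav1 was not tested.

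Enzymes that make and break down cAMP, the ligand of HCN channels, were described with a list of 26 genes, 24 of them tested. None had an adjusted p-value under 0.05, 15 had a negative log2 fold change, and the median was -0.03. At an unadjusted p-value under 0.05, 1 of 24 was lower and 0 were higher, against 9.86% of all tested rows. The count was 4, 5 and 4 without stimulated rats 6, 8 and 9 in turn, where that of all rows went from 2214 to 3145, 3034 and 1979. It was 2 without sham rat 4 or stimulated rat 10, with 1693 and 2063 rows in all. The gene that passed with all 10 rats was Pde1b, a calcium- and calmodulin-dependent phosphodiesterase. Its values were 103.3, 107.9, 119.3, 125.7 and 109.8 CPM among sham and 99.1, 63.8, 102.4, 96.5 and 87.4 CPM among stimulated rats. All 5 stimulated rats lay below all sham rats, rat 8 by less than 1 CPM, where 1.29% of all tested rows had groups that did not overlap. The log2 fold change of Pde1b was -0.33 (SE 0.12, adjusted p = 0.416). Adcy4, an adenylyl cyclase, had the next lowest p-value, with 2.15 to 3.05 CPM among sham and 2.08 to 4.69 CPM among stimulated rats, and its log2 fold change was 0.48 (SE 0.246, adjusted p = 0.541). Adcy1, the calmodulin-stimulated cyclase of hippocampal neurons, was counted at 102.2, 139.6, 152.1, 142.7 and 110.7 CPM in sham rats and at 124.9, 24.2, 91.9, 129.9 and 39.8 CPM among stimulated rats 6 to 10. Rats 7, 8 and 10 lay below all sham rats and rats 6 and 9 within their range, and the log2 fold change was -0.66 (SE 0.357, adjusted p = 0.559). Adcy1 was chosen for mention after its values were seen.

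A list of HCN regulators held kinases, lipid kinases, phosphatases, cAMP-activated exchange factors and the transcription factor Rest. It had 18 genes, 16 of them tested. None had an adjusted p-value under 0.05, 1 was higher and 1 lower at an unadjusted p-value under 0.05, against 9.86% of all tested rows, and the median log2 fold change was -0.06. In both directions together the count was 4 without stimulated rat 6 or 8, where that of all rows was 3145 and 3034, and 1 without sham rat 2, sham rat 5 or stimulated rat 7, where it was 1785, 1821 and 1656. Rest, a repressor of neuronal genes, was counted at 0.839 to 2.23 CPM among sham and 1.53 to 4.13 CPM among stimulated rats, and its log2 fold change was 0.74 (SE 0.301, adjusted p = 0.446). It stood at 2.08, 4.13, 1.53, 2.60 and 2.58 CPM in rats 6 to 10, so that rats 7, 9 and 10 lay above all sham rats. Hcn2 was lowest in rat 7 but stood at 109.8 and 118 CPM in rats 9 and 10, and the part of Rest in the level of any HCN gene was not tested. Pip5k1b makes the membrane lipid that eases opening of HCN channels. It was counted at 22.1 to 31 CPM among sham and 11 to 25.9 CPM among stimulated rats, with 4 of 5 stimulated rats below all sham rats, and its log2 fold change was -0.51 (SE 0.187, adjusted p = 0.42). The study itself lists Pip5k1b as downregulated in this model, from its own edgeR analysis, with an unadjusted cut-off and fewer stimulated rats by its methods. Among the kinases, Mapk14 and Camk2a had log2 fold changes of 0.07 and -0.16.

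**Figure D4:**
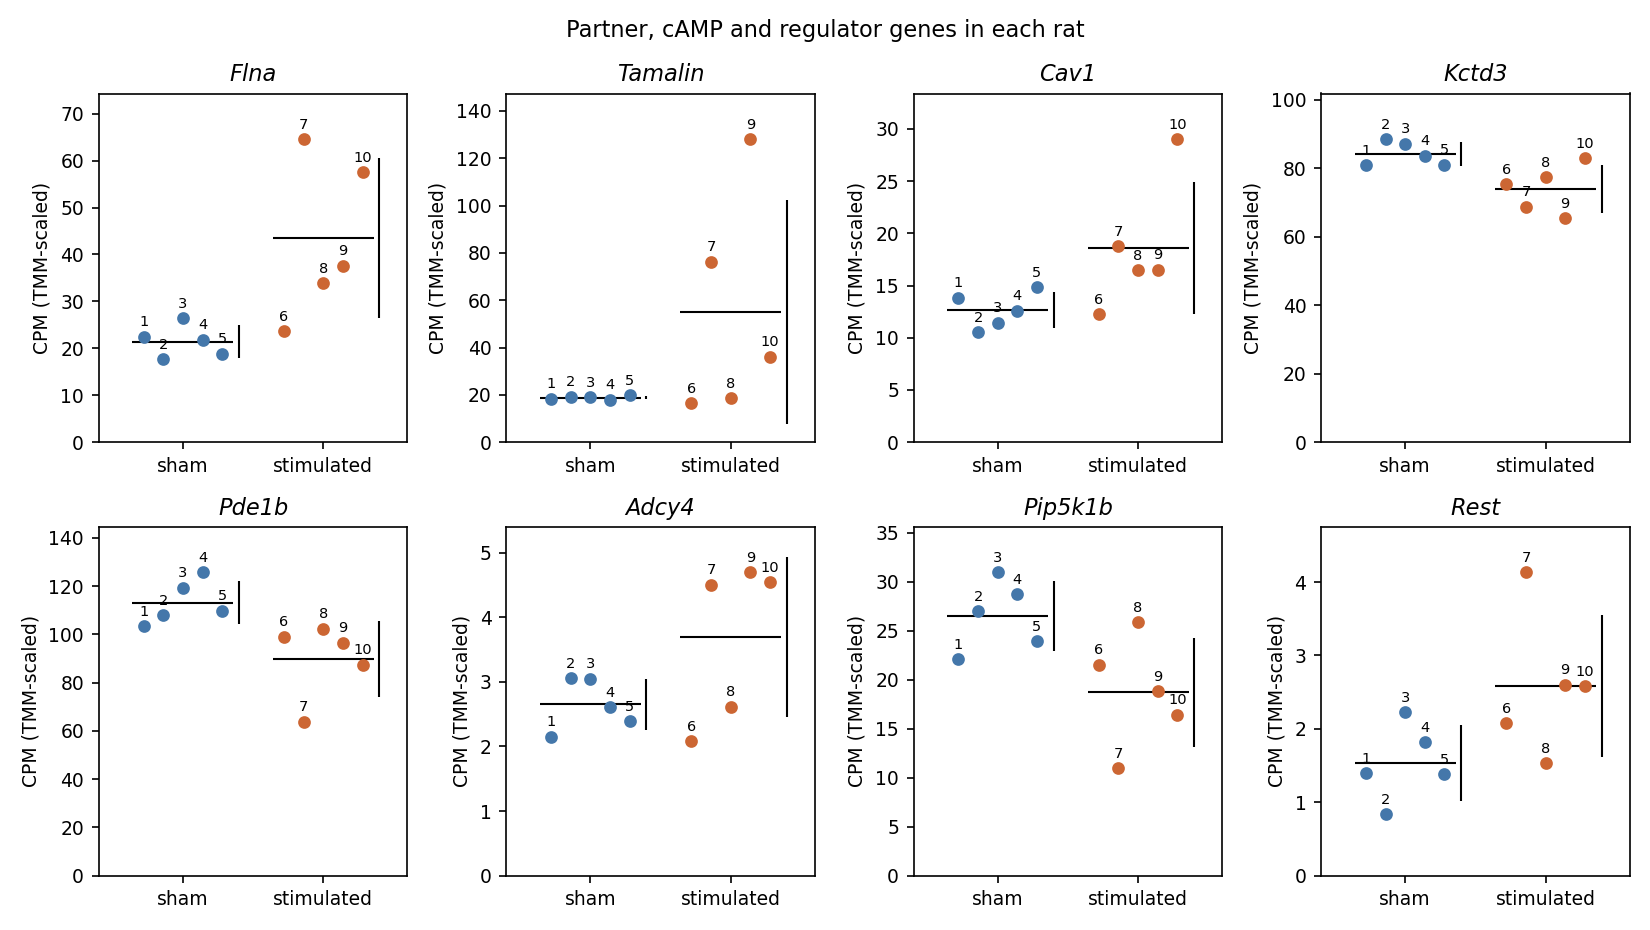
Expression in CPM of the 8 partner, cAMP and regulator genes with the lowest p-values of their lists, with 1 point per rat labelled by rat number, horizontal lines for group means and vertical lines for ±1 SD (n = 5 each). Pde1b is the gene of the 8 whose groups do not overlap, as is the case for 1.29% of all tested rows. Tamalin is high in rats 7, 9 and 10 and lies at 16.6 to 19.8 CPM in the other rats.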

How the data were processed

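Polyadenylated RNA of 10 rats was sequenced in single reads of 36 cycles. The authors aligned reads to the rat genome RN4 with BWA, as their methods state, and deposited raw counts per feature, which carry RefSeq transcript identifiers. Strand use and the treatment of shared reads are not given in the sources used here. Groups were taken from the treatment labels. The methods of the study count 1 stimulated rat fewer than the labels, so each rat was left out in turn. Symbols came from the RefSeq table of GRCr8 by transcript identifier (17363 rows matched). Transcript lengths and positions of the authors' build were not used here, so levels are not compared between genes.

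Rows under the 30th percentile of summed counts (46 reads) were left out. Stimulated and sham rats were compared with edgeR 4.0.16 (R 4.3.3), trimmed mean (TMM) factors and the quasi-likelihood test, adjusted (Benjamini-Hochberg) over all 22447 rows. An SE is the absolute log2 fold change over the square root of the test's F value. CPM used TMM-scaled library sizes, and log2 CPM a prior count of 2. Means of log2 CPM were compared by exact permutation over 252 assignments (smallest two-sided p = 0.00794), and correlations with 100000 permutations. The code was checked on simulated data. Partner, cAMP, regulator and marker genes are from 15 lists. Named are list genes with unadjusted p under 0.05 (at least the 2 lowest), and the 3 rows with the highest r to each member. Some listed genes are not reported here. Members and lists were chosen with earlier results of these data known. No label names separate extraction or sequencing batches. Counting errors cover counting alone. Alternatives used limma 3.58.1, DESeq2 1.42.0 and other settings. Python used numpy 2.4.6, pandas 2.3.3, scipy 1.17.1 and matplotlib 3.10.9.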

Additional observations from a re-analysis of the deposited data

Results flagged for a closer look

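For 58 sets of values, each from the 5 rats of a group, the distance of the highest or lowest rat from the next was divided by the full range, and 1 such gap exceeded Dixon's critical value of 0.71, where chance gives about 5% of groups. It was that of Cdc42ep4 in stimulated rat 7, at 37.6 CPM with the nearest other stimulated rat at 101.1 CPM, a gap of 0.768 of the range. Cdc42ep4 was named because its pattern over the rats is close to that of Hcn2, which was lowest in the same rat.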

How the results depend on the processing

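The log2 fold changes of Hcn3, Hcn4 and Pex5l kept a negative sign in all 22 alternative settings, and that of Hcn2 in all but 1, and no adjusted p-value of the 4 was under 0.05 in any of them. With each rat left out in turn, the log2 fold change ranged from -0.11 to 0.0542 for Hcn2, from -0.34 to -0.18 for Hcn3, from -0.49 to -0.23 for Hcn4 and from -0.63 to -0.26 for Pex5l, and in the other 12 settings from -0.08 to -0.02, -0.28 to -0.23, -0.39 to -0.31 and -0.40 to -0.33. The difference of mean log2 CPM ranged with each rat left out from -0.13 to 0.0640 for Hcn2, from -0.33 to -0.18 for Hcn3, from -0.46 to -0.18 for Hcn4 and from -0.62 to -0.31 for Pex5l, and the exact permutation test passed 0.05 for Hcn3 without sham rat 5 or stimulated rat 9 and for Pex5l without stimulated rat 6. For Pex5l that outcome was fixed by leaving out the only stimulated rat above the sham range. Over all features, the count with an adjusted p-value under 0.05 was 119 in the likelihood ratio test and 33 in DESeq2, with 8 and 3 listed genes among them, and 0 in the other settings. The count with an unadjusted p-value under 0.05 was 1359 with 1 feature per symbol and ranged from 1656 to 3145 with each rat left out. For the cAMP enzymes, 2 genes passed the unadjusted threshold in limma-voom and 1 to 5 with each rat left out, and for the regulators 1 to 4. Correlations that changed sign were those of Hcn4 and Pex5l with centred values (-0.0561) and, without the 2 farthest rats, those of Hcn2 and Hcn4 (0.24), Hcn2 and Pex5l (-0.46), Hcn3 and Hcn4 (-0.17) and Hcn4 and Pex5l (-0.13). With each rat left out, r ranged from -0.31 to 0.0282 for Hcn2 and Hcn4, from -0.63 to 0.55 for Hcn2 and Pex5l, from -0.26 to 0.40 for Hcn3 and Hcn4, from 0.49 to 0.83 for Hcn3 and Pex5l and from -0.0327 to 0.37 for Hcn4 and Pex5l. The cause of these changes was not tested. Summing the rows of a symbol could not be run, since each of the 4 genes has 1 row, and per-length levels were not computed.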
